A study of Mus musculus with 12 samples.

Results

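The genes described here are 10 heat shock chaperones of the cytosol and the mitochondrion, Hspa1a, Hspa1b, Dnajb1, Dnaja1, Hsph1, Hspa8, Hspd1, Hspe1, Hsp90aa1 and Hsp90ab1, out of 40840 genes counted in 12 RNA-seq libraries. They were chosen by symbol, and chosen from a reading of the raw counts in which replicate 2 on Day 5 was low in both recipient genotypes, so the level of that replicate is given below as a description with no test. All 10 had enough counts to enter the test, as did 13570 genes of the 40840.

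OTII cells, naive CD4+ T cells with a transgenic receptor for a peptide of ovalbumin (OVA), were taken from the spleen of C57BL/6-Tg(TcraTcrb)425Cbn/J donors and transferred into WT (B6) recipients or into Il6-/- recipients (B6.129S2-Il6tm1Kopf/J), in which no cell of the host can make IL-6. In all groups alike, the recipients were sensitized intranasally with OVA and a house dust mite extract of high endotoxin content. Per the study's paper, this was an extract low in endotoxin to which LPS had been added. The OTII cells were sorted, on staining for B220, CD4, CD44 and CD45.1, from the mediastinal lymph nodes on Day 3 or Day 5, with 3 libraries for each of the 4 groups. The comparisons ask how priming without IL-6 in the recipient, and time after sensitization, changed the RNA of the donor cells. The donor cells carried Il6 in all groups and gave 0 to 5 reads on it per library, so Il6 does not check the labels. The sample labels name blood as the tissue, and the lymph node is taken from the study's methods. The labels give the treatment as the mite extract with OVA free of LPS and do not state the endotoxin of the extract, which comes from the series description. That description also says that the study's paper starts its count of days elsewhere, so Day 3 and Day 5 are named here as in the labels. Whether a replicate was the cells of 1 recipient or of several was not given in the sources used here, so that p-values measure the spread between libraries, which may be technical.

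Chaperones bind unfolded or partly folded proteins and keep them from aggregating. HSP70 proteins hold short exposed stretches of a client and are driven by HSP40 (J-domain) proteins, which bring clients and trigger ATP hydrolysis, and by exchange factors such as HSP110, which let the client go. Clients such as kinases and steroid receptors pass on to HSP90, while proteins imported into mitochondria fold in the barrel formed by HSP60 and its lid HSP10. Heat shock factor 1 binds arrays of the short unit GAA and its complement TTC, called heat shock elements, in the promoters of these genes after heat or other proteotoxic stress, and T cells also raise their chaperones when they are activated and grow.

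The libraries held 16125947 to 26111657 reads on genes (median 19727354), and values are given as CPM, the count relative to the library total after scaling by the trimmed mean of M values (TMM). Of all gene counts, the 10 chaperones took between 0.577% and 0.956% on Day 3 and between 0.364% and 0.6% on Day 5. Between 60.2% and 62.2% of reads fell on genes on Day 3 and only 52.5% to 56.7% did on Day 5, so this share moved with the day, and its part in the differences between days was not tested. All 6 T-cell markers were expressed, and their summed level was 3220 to 3830 CPM on Day 3 and 5210 to 6430 CPM on Day 5. Of the other cell types, the summed markers of B cells (6.55 to 16.6 CPM), of lung epithelium (0.634 to 21 CPM) and of red blood cells (0.235 to 1.09 CPM) were low, and those of myeloid and dendritic cells (102 to 162 CPM) were mostly Cst3 (82.8 to 112 CPM). The myeloid genes Lyz2 (2.93 to 28.3 CPM), Csf1r (0.849 to 10.2 CPM) and Itgam (1.8 to 7.76 CPM) were detected in all libraries, and the dendritic cell genes Itgax and Flt3 were at 0.117 and 0.208 CPM or less. In bulk RNA, fewer cells that express a gene and less of its RNA per cell cannot be told apart.

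The 2 inducible HSP70 genes lie side by side on chromosome 17, and their sequences are shown because they bear on how far the genes can be told apart. Hspa1a spans chr17:35188166-35191132 and Hspa1b chr17:35175412-35178214 on the reverse strand of GRCm39, each as 1 exon, with 12918 bases between their starts. The coding sequences were 99.6% identical, with 8 differing bases of 1923, and the 250 bases before the starts were identical at 247 positions. The lines below give these upstream bases at chr17:35191133-35191382 and chr17:35178215-35178464, read on the reverse strand from the genome of GENCODE vM39. Capitals mark a pair of facing heat shock units, searched as GAANNTTC and TTCNNGAA, each of which reads the same on both strands and which may overlap each other.
Hspa1a: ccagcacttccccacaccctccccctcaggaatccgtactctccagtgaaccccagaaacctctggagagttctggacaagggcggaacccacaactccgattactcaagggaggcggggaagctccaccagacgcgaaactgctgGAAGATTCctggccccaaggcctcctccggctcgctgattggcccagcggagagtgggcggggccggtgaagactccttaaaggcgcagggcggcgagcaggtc
Hspa1b: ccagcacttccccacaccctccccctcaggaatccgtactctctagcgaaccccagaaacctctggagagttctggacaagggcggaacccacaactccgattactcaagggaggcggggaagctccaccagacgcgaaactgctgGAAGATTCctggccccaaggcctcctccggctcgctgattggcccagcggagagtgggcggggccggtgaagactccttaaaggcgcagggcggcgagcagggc
Both genes held a single such pair, which began 104 bases before the start. A read of 50 bases could be placed uniquely over 39.7% of the windows of the Hspa1a transcript and 37.7% of those of Hspa1b. Reads that were not unique were not counted, so the counts of the pair come from the stretches where they differ, and the split between the genes is less certain than their sum.

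Among the other members, Dnajb1, Dnaja1, Hsph1, Hspe1 and Hspd1 held at least 1 pair of units in the window from 250 bases before to 50 bases after the start, and Hspa8, Hsp90aa1 and Hsp90ab1 held none of these letters there. In all, 7 of 10 members had the pair, against 14.3% of the windows of 21770 protein-coding genes and 16.7% of 66 genes of the wider chaperone network. These 7 do not hold 7 separate elements, since Hspa1a and Hspa1b are nearly identical there and Hspe1 and Hspd1 share the same stretch of DNA. The stretches of 30 bases around the element nearest to the start are shown, with the units in capitals and on the strand of each gene, to set the single pairs beside the longer element of the mitochondrial genes. Outside the inducible pair, the genes span chr8:84334811-84339820 (Dnajb1), chr4:40722056-40737149 (Dnaja1), chr5:149537636-149560156 (Hsph1), chr9:40711630-40731039 (Hspa8), chr1:55127260-55130476 (Hspe1), chr1:55116989-55171038 (Hspd1), chr12:110656842-110669166 (Hsp90aa1) and chr17:45878552-45891949 (Hsp90ab1). The stretches shown lie at chr8:84334839-84334868 (Dnajb1, forward), chr4:40722333-40722362 (Dnaja1, forward), chr5:149559816-149559845 (Hsph1, reverse) and chr1:55127212-55127241 (Hspe1, forward, and Hspd1, reverse).
Dnajb1: cgggaggggcgGAAGGTTCtggagggctgg
Dnaja1: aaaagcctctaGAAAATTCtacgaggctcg
Hsph1: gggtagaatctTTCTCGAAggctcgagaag
Hspe1: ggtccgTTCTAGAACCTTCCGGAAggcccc
Hspd1: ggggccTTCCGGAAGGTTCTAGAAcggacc
The element of Dnajb1 began 28 bases after its start, that of Dnaja1 124 bases and that of Hsph1 28 bases before theirs. Hspe1 and Hspd1 are transcribed away from each other from starts 108 bases apart, and the 18 capital bases are the same DNA seen from both sides. An array of at least 3 alternating units was found in Hspe1 and Hspd1 alone among the members and in 0.478% of all windows. CCAAT was found in 7 of 10 members (39.9% of all windows), GGGCGG in 10 of 10 (42.5%), both searched on either strand, and TATAA on the forward strand in none (17.4%). Such a match is a description of letters and not a measured site.

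In uniquely counted reads per kilobase of the transcript, Hsp90ab1 and Hspa8 were the highest members in every group, and the order below them differed between the groups. Hsp90ab1 was highest in every group, from 616 ± 25.1 CPM per kb in WT recipients on Day 5 to 1420 ± 104 CPM per kb in Il6-/- recipients on Day 3 (SD, n = 3). Hspa8 followed in every group, with 449 ± 41.5 CPM per kb in WT recipients on Day 5 and 1050 ± 136 CPM per kb in Il6-/- recipients on Day 3, and the ranges of these first genes did not overlap within any group. Hspe1 came next in all groups, although its range overlapped that of the next gene in WT recipients on Day 3 and in Il6-/- recipients on Day 5. Hspa1a was last in 3 groups, at 3.42 ± 1.51 to 5.08 ± 7.73 CPM per kb. In Il6-/- recipients on Day 5 it reached 50.6 ± 35.2 CPM per kb and its range overlapped that of Dnaja1, while Hspa1b reached 146 ± 101 CPM per kb, a range shared with Hspe1 and Hsp90aa1. Hsph1 was then the lowest at 12 ± 1.59 CPM per kb. These levels are understated for genes with copies elsewhere in the genome, because 24.3% of the 50-base windows of Hspa8, 32.1% of Hsp90aa1, 41.5% of Hspd1 and 53.5% of Hspe1 were unique, against 92.2% of Hsp90ab1 and 100% of Hsph1. The levels were not corrected for this, so their order is that of counted reads and may differ from that of the RNA. In particular, the place of Hspa8 below Hsp90ab1 may not hold for the RNA.

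**Figure D1:**
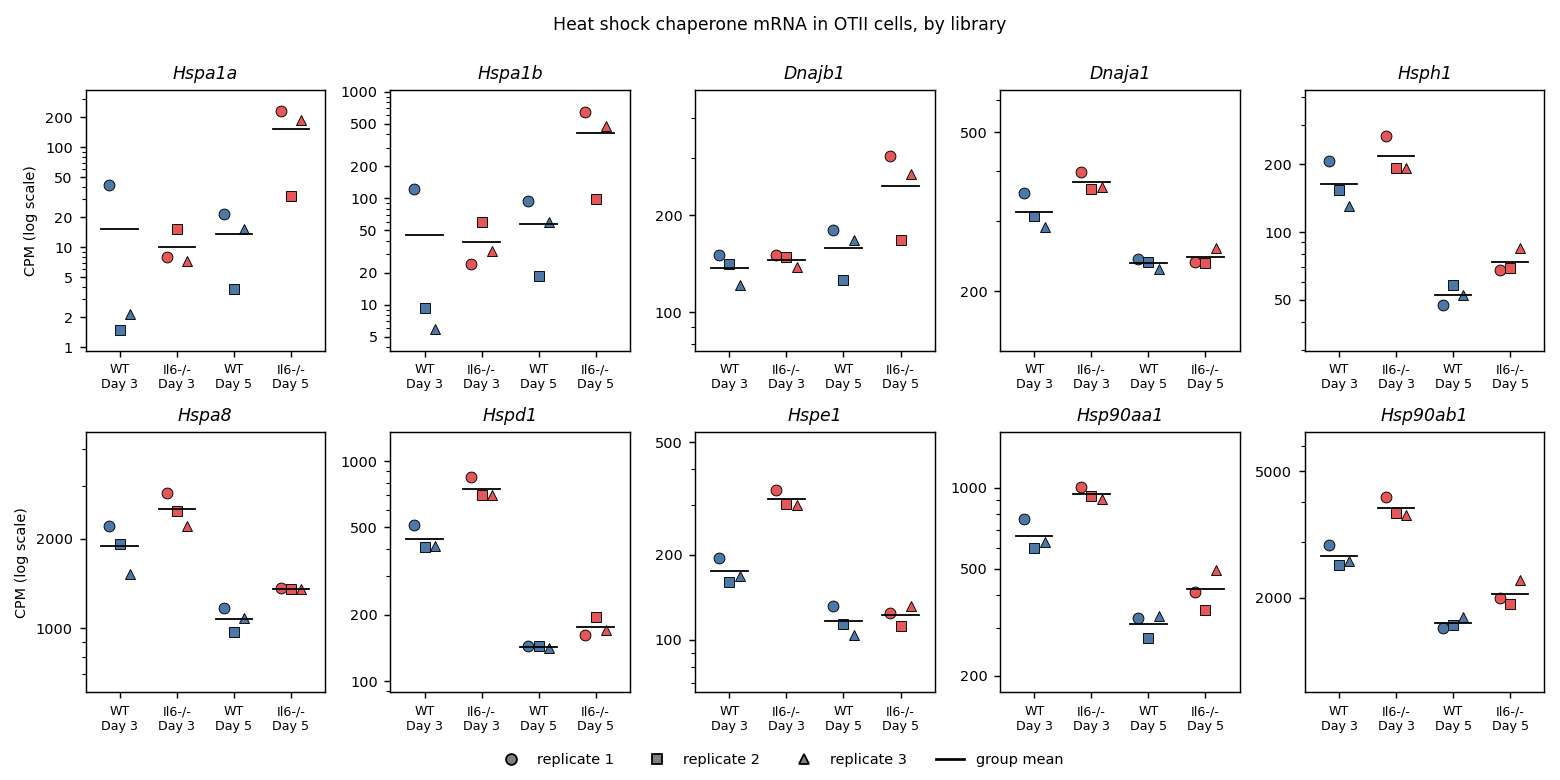
CPM of the 10 chaperone genes in each of the 12 libraries, on a log axis with its own range for each gene. Points are libraries (blue, WT recipients; red, Il6-/- recipients; the marker gives the replicate) and bars are group means (n = 3); Hspa1a and Hspa1b spread widely within groups, with replicate 1 of WT recipients on Day 3 high and replicate 2 of both Day 5 groups low, while most other members fell from Day 3 to Day 5.

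The inducible HSP70 genes Hspa1a and Hspa1b were the most variable members and, on Day 5, the ones with the largest difference between recipients. On Day 3, Hspa1a stood at 41.5, 1.48 and 2.17 CPM in replicates 1 to 3 of WT recipients and at 7.92, 15.3 and 7.2 CPM in those of Il6-/- recipients. On Day 5 it stood at 21.6, 3.84 and 15.3 CPM in WT recipients and at 232, 32.4 and 186 CPM in Il6-/- recipients. The recipients overlapped on Day 3 because of WT replicate 1, and on Day 5 every Il6-/- library was above every WT library. In counts, the Day 5 libraries gave 425, 74 and 325 reads in WT and 4388, 553 and 3573 reads in Il6-/- recipients, so that even the lowest of these values is well above counting noise.

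Hspa1b followed the same pattern at a higher level. It stood at 121, 9.3 and 5.92 CPM in WT recipients and at 24.3, 59.8 and 32.2 CPM in Il6-/- recipients on Day 3. On Day 5 the values were 94, 18.6 and 59.5 CPM in WT recipients and 649, 98.7 and 482 CPM in Il6-/- recipients. The groups again overlapped on Day 3 and did not on Day 5, although the lowest Il6-/- library lay close to the highest WT library. The ratio of Hspa1b to Hspa1a counts was between 2.59 and 6.27 over the 12 libraries and did not pass an exact permutation test between the days (two-sided, 6 against 6 libraries, adjusted p = 0.7 over 3 ratios).

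On Day 5, Hspa1a was higher in Il6-/- recipients by a log2 fold change of 3.46 (SE 0.94, 95% interval 1.46 to 5.47, an 11-fold difference), which passed edgeR's quasi-likelihood test with Benjamini-Hochberg adjustment over all genes tested (FDR = 0.048). The estimate for Hspa1b was 2.84 (SE 0.91, interval 0.91 to 4.77, FDR = 0.089) and did not pass. Neither the sample titles nor the study's methods state that libraries of the same replicate number were paired. On Day 5 such libraries of the 2 genotypes deviated together over all genes tested (r = 0.24, 0.21 and 0.13 for replicates 1, 2 and 3). With replicate number as a block, both genes passed edgeR's test on Day 5, Hspa1a at FDR = 0.0022 and Hspa1b at FDR = 0.0083. The block removes the low level of replicate 2 on which the members were chosen. The blocked values of these genes, and of every other member below, are therefore not independent of that choice. When the counts of the 2 genes were summed, the difference was 2.98 and did not pass (FDR = 0.084). When each library was left out in turn, Hspa1a passed in 4 of 12 fits, with FDR between 0.0045 and 0.15 and the log2 fold change between 3.01 and 3.96. On Day 3 the differences of -0.62 (SE 0.94, FDR = 0.74) for Hspa1a and -0.25 (SE 0.88, FDR = 0.90) for Hspa1b did not pass, and their signs rested on WT replicate 1. Without that library they were 2.47 (FDR = 0.10) and 2.34 (FDR = 0.062). The change of the genotype difference from Day 3 to Day 5 was 4.08 for Hspa1a (SE 1.31, FDR = 0.088) and 3.09 for Hspa1b (SE 1.24, FDR = 0.18). With the block it was 3.09 for Hspa1a, just under the threshold (FDR = 0.05 after rounding), and 1.98 for Hspa1b (FDR = 0.2). Without the block and without WT replicate 1 of Day 3 it was 0.99 (FDR = 0.70) and 0.49 (FDR = 0.83).

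From Day 3 to Day 5 in Il6-/- recipients, Hspa1a rose by 3.89 (SE 0.97, 14.9-fold, FDR = 0.0028) and Hspa1b by 3.40 (SE 0.93, 10.6-fold, FDR = 0.0054) on the log2 scale, with no overlap between the days. Both passed the edgeR test whichever of the 12 libraries was left out. In WT recipients the estimates were -0.19 (SE 0.92, FDR = 0.87) and 0.31 (SE 0.87, FDR = 0.77), again with WT replicate 1 of Day 3 as the deciding library. Without it, both rose by 2.90 in WT recipients as well, with FDR = 0.015 for Hspa1a and 0.0060 for Hspa1b.

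The HSP40 genes Dnajb1 and Dnaja1 encode J-domain partners of HSP70, Dnajb1 the heat-inducible one and Dnaja1 a farnesylated one that is made constitutively, and in Il6-/- recipients they moved in opposite directions over time. Dnajb1 stood at 150, 141 and 122 CPM in WT and 150, 148 and 138 CPM in Il6-/- recipients on Day 3. On Day 5 it stood at 180, 126 and 168 CPM in WT and 304, 168 and 268 CPM in Il6-/- recipients. Replicate 2 was the lowest of its group in both genotypes on Day 5, and there the lowest Il6-/- library fell within the WT range. Dnajb1 was higher in Il6-/- recipients on Day 5 by 0.64 (SE 0.17, 1.56-fold, FDR = 0.045 in the edgeR test, 0.00024 with the replicate block). On Day 3 the difference was 0.08 (SE 0.17, FDR = 0.83), and the change between the days of 0.57 (SE 0.24, FDR = 0.20) did not pass without the block and passed with it (0.54, FDR = 0.0051). The Day 5 difference passed in 3 of the 12 fits without 1 library (FDR 0.0056 to 0.16). From Day 3 to Day 5, Dnajb1 rose by 0.77 in Il6-/- recipients (SE 0.17, 1.70-fold, FDR = 0.0013), as did Hspa1a and Hspa1b, and its estimate in WT recipients was 0.20 (SE 0.17, FDR = 0.33).

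Dnaja1 stood at 351, 308 and 289 CPM in WT and 398, 361 and 365 CPM in Il6-/- recipients on Day 3, and at 240, 237 and 227 CPM and 237, 235 and 256 CPM on Day 5. It fell from Day 3 to Day 5 in both genotypes, with log2 fold changes of -0.43 (SE 0.08, FDR = 0.00033) in WT and -0.63 (SE 0.08, FDR = 7.6e-06) in Il6-/- recipients in the edgeR test. Its Day 3 groups did not overlap, but the difference of 0.25 (SE 0.08, FDR = 0.055) did not pass, and it passed without WT replicate 1 (0.33, FDR = 0.020). On Day 5 the difference was 0.05 (SE 0.08, interval -0.12 to 0.22, FDR = 0.81), with overlapping groups. In GENCODE vM39, 90.3% of the exon bases of Dnaja1 also lie in exons of other counted genes, almost all of them of Smu1 on the opposite strand. The authors counted without regard to strand, and ambiguous reads were not assigned to genes. Under this annotation, reads in the shared bases would not be counted and the level of Dnaja1 would be understated. The authors' annotation may differ, so the level of Dnaja1 is uncertain.

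Hsph1, which encodes the HSP110 exchange factor of HSP70, stood at 206, 154 and 131 CPM in WT and 267, 192 and 193 CPM in Il6-/- recipients on Day 3. On Day 5 it stood at 47.7, 58.1 and 52.7 CPM in WT and 67.6, 69.3 and 85.3 CPM in Il6-/- recipients. The days were far apart in both genotypes, and Hsph1 fell with log2 fold changes of -1.63 (SE 0.16, 3.10-fold lower, FDR = 8.5e-07) in WT and -1.55 (SE 0.16, 2.94-fold lower, FDR = 1.0e-06) in Il6-/- recipients. The recipients differed by 0.41 on Day 3 (SE 0.16, FDR = 0.11) and 0.49 on Day 5 (SE 0.16, FDR = 0.10), neither of which passed, although the Day 5 groups did not overlap. The Day 5 difference passed in edgeR with the replicate block (FDR = 0.0026), and the Day 3 difference passed without WT replicate 1 (0.61, FDR = 0.018).

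Hspa8, the constitutive HSP70 that carries most of the housekeeping folding of the cytosol, stood at 2210, 1920 and 1520 CPM in WT and 2860, 2480 and 2200 CPM in Il6-/- recipients on Day 3. On Day 5 it stood at 1170, 971 and 1080 CPM in WT and at 1360, 1350 and 1350 CPM in Il6-/- recipients. The days did not overlap in either genotype, and Hspa8 fell with log2 fold changes of -0.81 (SE 0.12, 1.75-fold lower, FDR = 3.8e-05) in WT and -0.89 (SE 0.12, 1.86-fold lower, FDR = 1.2e-05) in Il6-/- recipients. On Day 3 it was higher in Il6-/- recipients by 0.42 (SE 0.12, 1.33-fold, FDR = 0.030), with the lowest Il6-/- library just below the highest WT library. This call was lost in edgeR without WT replicate 2 (FDR = 0.081), WT replicate 3 (0.13), Il6-/- replicate 1 (0.15) or Il6-/- replicate 2 (0.072). On Day 5 the groups did not overlap, and the difference of 0.33 (SE 0.12, FDR = 0.13) did not pass without the replicate block and passed with it (FDR = 0.0025). With Hspa1a and Hspa1b so variable, the ratio of Hspa8 to the summed CPM of the inducible pair ranged from 13.6 to 188 on Day 3 and from 1.54 to 43.3 on Day 5.

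The mitochondrial chaperonin genes Hspd1 (HSP60) and Hspe1 (HSP10), whose shared element is printed above, had the clearest difference between recipients on Day 3. Hspd1 stood at 511, 407 and 411 CPM in WT and 849, 704 and 700 CPM in Il6-/- recipients on Day 3, and at 144, 144 and 142 CPM and 162, 195 and 170 CPM on Day 5. Hspe1 stood at 195, 160 and 168 CPM in WT and 339, 302 and 300 CPM in Il6-/- recipients on Day 3, and at 132, 114 and 104 CPM and 124, 112 and 131 CPM on Day 5. On Day 3 every Il6-/- library was above every WT library for both genes, and on Day 5 this held for Hspd1 and not for Hspe1.

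On Day 3, Hspe1 was higher in Il6-/- recipients by 0.85 (SE 0.10, 1.80-fold, FDR = 0.00012) and Hspd1 by 0.76 (SE 0.10, 1.69-fold, FDR = 0.00026) on the log2 scale in the edgeR test. Both passed whichever library was left out, with log2 fold changes between 0.79 and 0.94 for Hspe1 and between 0.66 and 0.88 for Hspd1. On Day 5 the differences were 0.07 (SE 0.10, interval -0.15 to 0.29, FDR = 0.77) for Hspe1 and 0.30 (SE 0.10, interval 0.08 to 0.52, FDR = 0.12) for Hspd1. The Day 5 difference of Hspe1 was smaller than that of Day 3 by an interaction of -0.78 (SE 0.15, FDR = 0.0097), and the interaction of Hspd1 of -0.47 (SE 0.15, FDR = 0.079) did not pass without the replicate block and passed with it (-0.47, FDR = 0.0037). With the replicate block, Hspd1 passed on Day 5 (0.29, FDR = 0.0078) and Hspe1 did not (FDR = 0.63). Hspe1 kept its interaction in all 12 fits (-0.87 to -0.66, FDR 0.0031 to 0.035). Of its canonical exon bases, 14.5% also lie in exons of Hspd1 transcripts on the opposite strand.

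Over time, Hspd1 fell the furthest of the members, with log2 fold changes of -1.63 (SE 0.11, 3.10-fold lower, FDR = 2.6e-08) in WT, the same value as Hsph1, and -2.10 (SE 0.11, 4.28-fold lower, FDR = 4.5e-09) in Il6-/- recipients in edgeR. Those of Hspe1 were -0.58 (SE 0.10, 1.49-fold lower, FDR = 0.00022) and -1.35 (SE 0.10, 2.56-fold lower, FDR = 5.6e-08). The pair did not fall in step. The ratio of Hspd1 to Hspe1 CPM was 2.33 to 2.62 in the 6 libraries of Day 3 and 1.09 to 1.74 in the 6 of Day 5, with means of 2.47 ± 0.116 and 1.34 ± 0.215 (SD). The difference of -0.89 on the log2 scale reached the smallest p that an exact two-sided permutation test of 6 against 6 libraries can give (p = 0.0022, 0.0032 after adjustment over 3 ratios). The libraries of both genotypes did not overlap between the days.

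The HSP90 genes encode the stress-inducible (Hsp90aa1) and the constitutive (Hsp90ab1) form of the cytosolic chaperone of kinases and receptors. Hsp90aa1 stood at 765, 598 and 631 CPM in WT and 1010, 934 and 909 CPM in Il6-/- recipients on Day 3, and at 327, 277 and 334 CPM and 410, 351 and 496 CPM on Day 5. Hsp90ab1 stood at 2940, 2540 and 2620 CPM in WT and 4160, 3690 and 3640 CPM in Il6-/- recipients on Day 3, and at 1610, 1640 and 1740 CPM and 1990, 1910 and 2280 CPM on Day 5. For both genes and on both days, every Il6-/- library lay above every WT library. Of the exon bases of Hsp90ab1, 9.84% also lie in exons of Slc35b2 on the opposite strand.

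On Day 3 the difference was 0.52 for Hsp90aa1 (SE 0.12, 1.43-fold, FDR = 0.0099) and 0.50 for Hsp90ab1 (SE 0.08, 1.42-fold, FDR = 0.00095) in the edgeR test. Hsp90aa1 lost this call without WT replicate 2 (0.45, FDR = 0.061). On Day 5 it was 0.31 for Hsp90ab1 (SE 0.08, 1.24-fold, FDR = 0.045), which passed in 5 of the 12 fits without 1 library (FDR 0.030 to 0.15), and 0.42 for Hsp90aa1 (SE 0.12, FDR = 0.061), which passed with the replicate block (FDR = 0.0013). Both fell with time, Hsp90aa1 with log2 fold changes of -1.09 (SE 0.12, FDR = 2.4e-06) in WT and -1.18 (SE 0.12, FDR = 8.3e-07) in Il6-/- recipients and Hsp90ab1 with -0.70 (SE 0.08, FDR = 4.0e-06) and -0.90 (SE 0.08, FDR = 2.8e-07). The ratio of Hsp90ab1 to Hsp90aa1 CPM went from 4.05 ± 0.145 on Day 3 (3.85 to 4.25) to 5.16 ± 0.47 on Day 5 (4.6 to 5.91). This difference of 0.34 on the log2 scale also reached the smallest p of the exact permutation test (p = 0.0022, adjusted p = 0.0032).

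**Figure D2:**
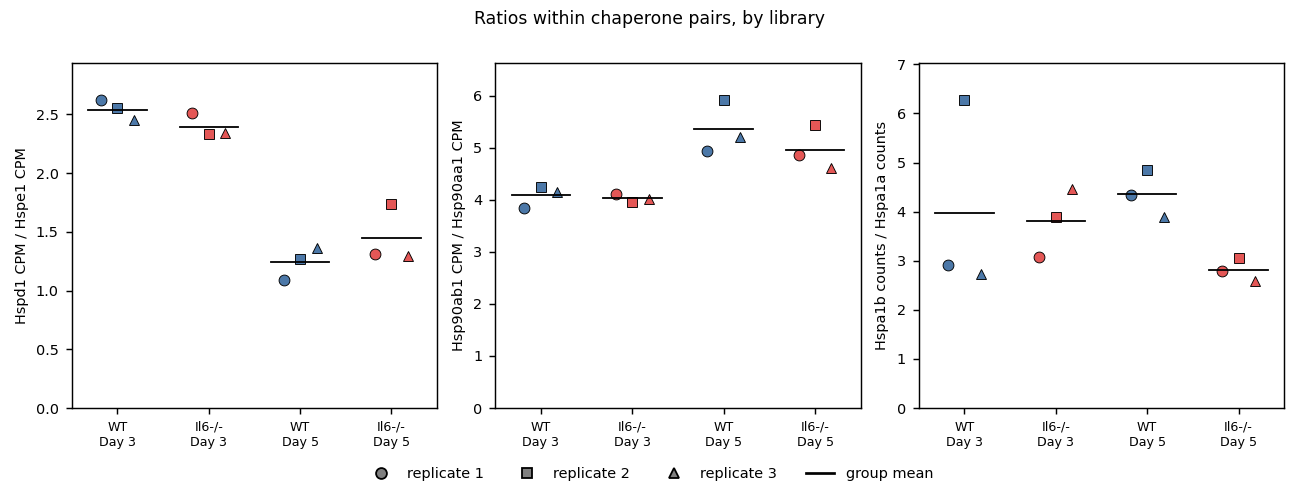
Ratios of CPM within the mitochondrial pair Hspd1 and Hspe1 (left) and the HSP90 pair (middle), and of counts within the inducible HSP70 pair (right), per library, on axes that start at 0. Points are libraries (marker, replicate) and bars group means (n = 3); the left ratio was 2.33 to 2.62 on Day 3 and 1.09 to 1.74 on Day 5, the middle one 3.85 to 4.25 and 4.6 to 5.91, and the right one overlapped between the days.

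Counted together, 5 of the 10 members were higher in Il6-/- recipients on Day 3 (Hspe1, Hspd1, Hsp90aa1, Hsp90ab1 and Hspa8), where 7.52% of all genes tested were called higher, and none was called lower. None of the 5 reached a 2-fold change. The libraries of the recipients did not overlap for 5 members, against 36.2% of all genes tested. The median difference was 0.41 over the 10 members and 0.01 over all genes tested. Summed markers of B cells (6.55 to 8.69 CPM in WT and 13.7 to 14.6 CPM in Il6-/- recipients) and of CD8 T and NK cells (65.9 to 77.1 and 104 to 136 CPM, of which Cd8b1 made up 56.3 to 84.2 CPM over all libraries) were also higher in the Il6-/- libraries of Day 3, while those of T cells were at 3390 to 3830 CPM in WT and 3220 to 3290 CPM in Il6-/- recipients. Over all 12 libraries, the CD8 T and NK cell genes Klrb1c (3.75 to 36.5 CPM), Nkg7 (2.13 to 23.8 CPM) and Prf1 (0.053 to 1.19 CPM) were detected, as were the B-cell genes Cd79b (2.75 to 7.38 CPM), Cd22 (0.326 to 7.32 CPM) and Cd79a (0.159 to 2.96 CPM), while Pax5 lay between 0 and 2.59 CPM. Cd8a, Ncr1 and Ms4a1 were at 0 in at least 1 library and at 1.7 CPM or less in all. The part of these cells in the result was not tested.

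On Day 5, 3 of the 10 members were higher in Il6-/- recipients (Hspa1a, Dnajb1 and Hsp90ab1), where 1.27% of all genes tested were called higher, and 7 did not overlap between recipients, against 19.6% of all genes tested. With the replicate block, 8 members were higher, beside 5.43% of all genes tested. These blocked calls are likewise not independent of the choice of the members on replicate 2. Without replicate 2 of Day 5 in both genotypes, 1 member was called (Dnajb1, 0.73, FDR = 0.010 in edgeR), beside 68 genes called in all. Leaving out 1 library at a time gave 0 to 5 called members, with 0 when WT replicate 1 or 2 of Day 5, Il6-/- replicate 2 or 3 of Day 3 or Il6-/- replicate 3 of Day 5 was left out, and 5 when WT replicate 1 of Day 3 was left out. The median difference was 0.38 over the members and 0.01 over all genes tested. Summed B-cell markers were again higher in Il6-/- recipients on Day 5 (8.99 to 11.5 CPM in WT and 12.3 to 16.6 CPM in Il6-/- recipients), and those of CD8 T and NK cells overlapped (91.7 to 114 and 102 to 120 CPM). Their part in the result was not tested. The change of the genotype difference between the days passed for 1 member of 10 (Hspe1), beside 4.92% of all genes tested, so that for the other 9 a difference that passed on 1 day and not on the other was not shown to differ between the days in this fit. With the replicate block the interaction passed for 4 members (Hspa1a, Dnajb1, Hspe1 and Hspd1), beside 11.5% of all genes tested. Libraries of the same number deviated together on Day 5 alone, and no pairing is stated for either day. The comparisons share libraries, since each group enters 1 genotype and 1 day comparison.

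**Figure D3:**
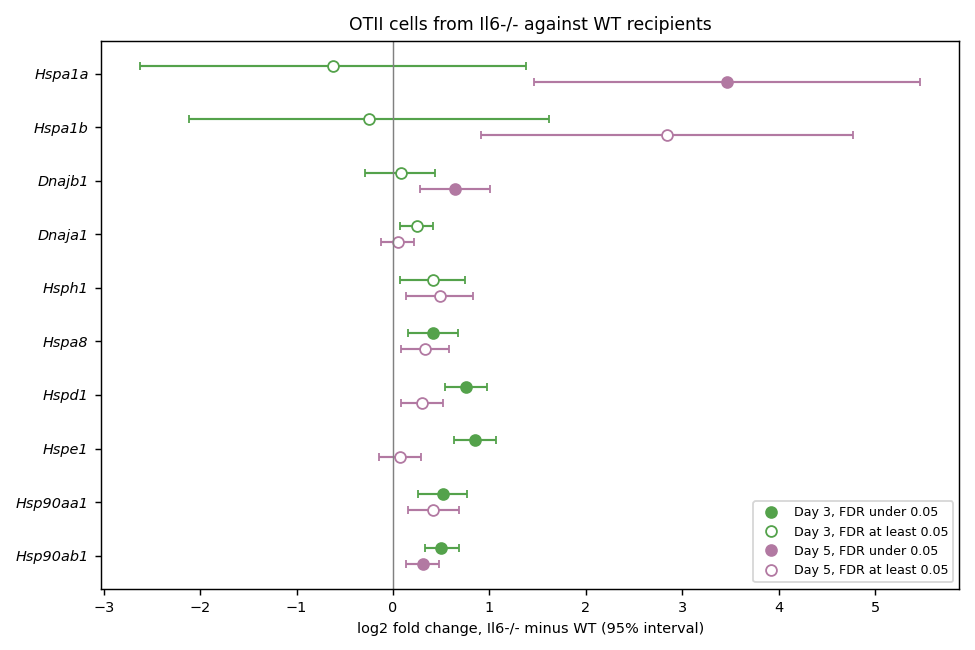
log2 fold changes of the 10 chaperone genes between OTII cells of Il6-/- and WT recipients on Day 3 (green) and Day 5 (purple), with 95% intervals of the edgeR fit (n = 3 libraries per group). Filled points have an FDR under 0.05; on Day 3 they are Hspa8, Hspd1, Hspe1, Hsp90aa1 and Hsp90ab1 (0.42 to 0.85), and on Day 5 Hspa1a (3.46), Dnajb1 (0.64) and Hsp90ab1 (0.31).

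From Day 3 to Day 5, the same 7 members fell in both genotypes (Dnaja1, Hsph1, Hspa8, Hspd1, Hspe1, Hsp90aa1 and Hsp90ab1), where 27.1% of all genes tested fell in WT and 30.1% in Il6-/- recipients. In WT recipients the other 3 members did not pass the test, and in Il6-/- recipients all 3 rose (Hspa1a, Hspa1b and Dnajb1), where 30.4% of all genes tested rose. The days did not overlap for 7 members in WT recipients, against 63.3% of all genes tested, and for 10 in Il6-/- recipients, against 65.8%. Falls of at least 2-fold were reached by 3 members in WT (Hspd1, Hsph1 and Hsp90aa1) and by 4 in Il6-/- recipients (these 3 and Hspe1). Of all 13570 genes tested, 1274 in WT and 1543 in Il6-/- recipients were called with such a fall.

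**Figure D4:**
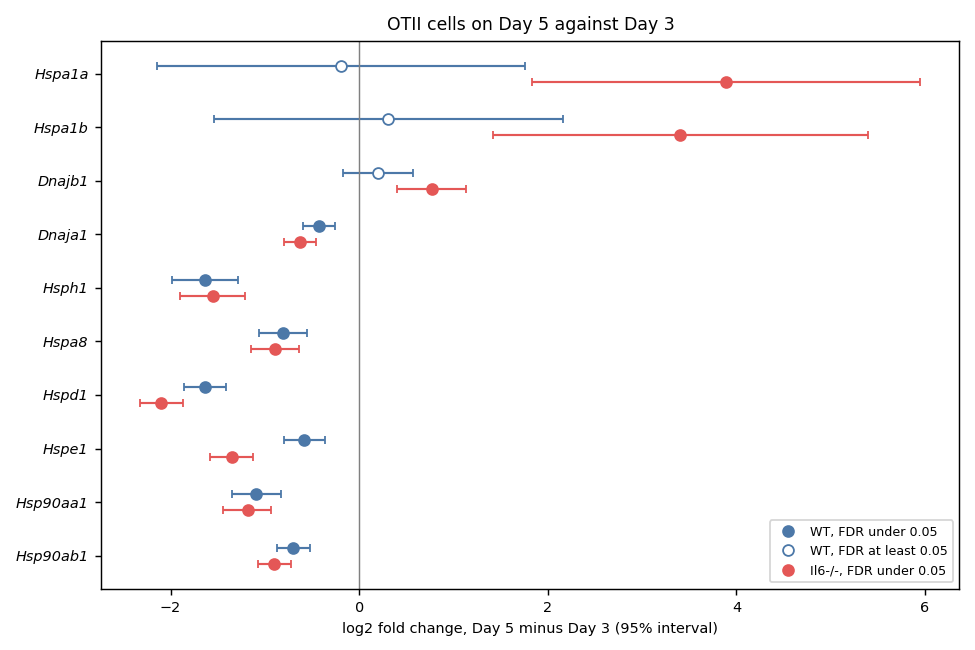
log2 fold changes of the 10 chaperone genes between Day 5 and Day 3 in OTII cells of WT (blue) and Il6-/- recipients (red), with 95% intervals of the edgeR fit (n = 3 libraries per group). Filled points have an FDR under 0.05; Hspa1a, Hspa1b and Dnajb1 were higher on Day 5 in Il6-/- recipients (3.89, 3.40 and 0.77), and the other 7 members were lower in both genotypes, down to -2.10 for Hspd1.

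Replicate 2 of Day 5, on which the members were chosen, was low mainly in Hspa1a and Hspa1b. Against the mean of replicates 1 and 3 on the log2 scale, Hspa1a was at -2.21 in WT and -2.68 in Il6-/- recipients and Hspa1b at -2 and -2.5, which is 4.63-fold and 6.4-fold lower for Hspa1a and 4.01-fold and 5.66-fold lower for Hspa1b. Dnajb1 was at -0.46 and -0.76 and Hsp90aa1 at -0.25 and -0.36. These 4 of 10 members were the lowest of their 3 libraries in both genotypes, where 12.4% of all genes tested were. The other 6 members lay between -0.21 and 0.23, with Hspd1 at 0.01 and 0.23. Among these 6, replicate 2 was the lowest of its group in 1 genotype for 4 (Hspa8 in WT and Dnaja1, Hspe1 and Hsp90ab1 in Il6-/- recipients) and in neither for Hsph1 and Hspd1. The median over the members was -0.13 in WT and -0.17 in Il6-/- recipients, and over all genes tested 0.03 and 0.

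The immediate early genes are transcription factors and regulators such as Fos and Jun that are switched on within minutes of a stimulus or of tissue handling. Of 18 tested, 8 were likewise lowest in replicate 2 of both Day 5 groups, beside 12.4% of all genes tested. The 8 were Fos, Fosb, Jun, Junb, Ier2, Dusp1, Zfp36 and Klf6. The summed level of 19 immediate early genes was 3650, 2730 and 3610 CPM in WT and 3140, 2150 and 3300 CPM in Il6-/- recipients on Day 5. On Day 3 it was 1490, 1550 and 1260 CPM and 1110, 1080 and 1060 CPM, so the sum was higher on Day 5 in both genotypes, and replicate 1 of WT recipients on Day 3 lay between the other 2. Single genes in that library did stand apart from the mean of replicates 2 and 3 on the log2 scale, with Jund 1.49, Ier5 1.02, Jun 0.95, Klf2 0.93 and Fos 0.56 above it and Zfp36 at -0.48, Egr3 at -0.42 and Egr1 at -0.39. From Day 3 to Day 5, 14 of the 18 rose in each genotype, where 29.5% of all genes tested rose in WT and 30.4% in Il6-/- recipients. The part of these signals in the chaperone values was not tested. Of 63 other chaperone network genes tested, 8 were lowest in replicate 2 in both genotypes on Day 5, beside 12.4% of all genes tested. The median of the network against replicates 1 and 3 was 0.02 in WT and 0.08 in Il6-/- recipients.

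Replicate 1 of WT recipients on Day 3 stood out in the other direction. It was above the mean of replicates 2 and 3 by 4.46 for Hspa1a (22-fold) and 4.01 for Hspa1b (16.1-fold) on the log2 scale. The other 8 members were higher in it by 0.19 (Dnajb1 and Hsp90ab1) to 0.53 (Hsph1), beside a median of 0.02 over all genes tested. In each of the 4 groups, Hspa1a and Hspa1b thus had the widest spread, with deviations from the group mean of up to 2.97 and 2.67, and no other member deviated by more than 0.51 in any library. Over the 12 libraries, deviations from the group means had r = 0.98 between Hspa1a and Hspa1b, 0.72 between Hspa1a and Dnajb1, 0.81 between Hspa1a and Hsp90aa1 and 0.24 between Hspa1a and Hspd1. Dnaja1 and Hsph1 had r = 0.90 and Hsp90aa1 and Hsp90ab1 r = 0.87. These are descriptions over 12 points that share library preparation and depth, and WT replicate 1 of Day 3 weighs in all of those with Hspa1a.

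**Figure D5:**
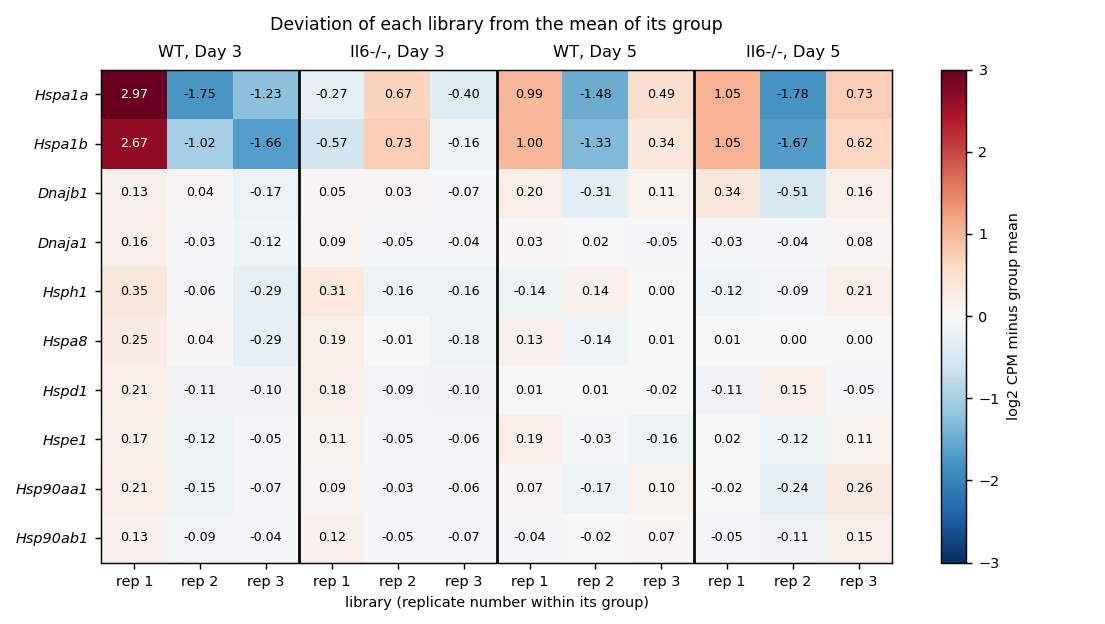
Deviation of log2 CPM from the mean of its group for each chaperone gene (rows) in each of the 12 libraries (columns, by group and replicate), as color and as printed values. The largest deviations are those of Hspa1a and Hspa1b, at 2.97 and 2.67 in replicate 1 of WT recipients on Day 3 and between -1.78 and -1.33 in replicate 2 of both Day 5 groups.

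Among 8313 other genes with a mean of at least 10 CPM, those most alike to the members in their deviations within groups were Alkbh5, which encodes an RNA demethylase (r = 0.93 with the mean over the 10 members), Gm24265, Wdr24, Tspyl1, Zfp729a, Sfpq, a splicing factor (0.89), Wac, Zfp938, Nsd1, a histone methyltransferase (0.86), and Fnbp4, over 12 libraries. Against the mean of replicates 1 and 3, Alkbh5 was at -0.22 and -0.29 in replicate 2 of Day 5 in WT and Il6-/- recipients. This shift was far smaller than that of Hspa1a. On log2 CPM without removing group means, Tra2a (0.95), Rexo4, Mrfap1, Maged2 and Nsfl1c were most alike. These values are given with no test, and the mean over the members is carried by Hspa1a and Hspa1b, whose deviations are the widest.

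On Day 3 and over time, most genes of the wider chaperone network that changed did so in the direction of Hspa8, Hspd1, Hspe1, Hsp90aa1 and Hsp90ab1. Of 67 listed genes 63 were tested, and Hspb1, Hspb8, Cryab and Serpinh1, with at most 13 counts in a library, were not. On Day 3, 25 were higher and 2 lower in Il6-/- recipients (42.9% called), where 7.52% of all genes tested were higher and 6.19% lower, and the median difference was 0.24. On Day 5 none was higher in edgeR and 2 were lower (3.17%), where 1.27% of all genes tested were higher and 3.35% lower. Of the 63, 13 had an unadjusted p under 0.05 in edgeR, as did 2690 of all 13570 genes tested, which is a similar share. DESeq2 called 5 network genes, and the median difference was 0.09. With the replicate block, 8 were higher and 3 lower on Day 5, beside 11.7% of all genes tested called and 5.43% called higher. From Day 3 to Day 5, 38 fell and 9 rose in WT, with a median of -0.44, and 46 fell and 11 rose in Il6-/- recipients, with a median of -0.57, where the median over all genes tested was 0.09 in both. Of all genes tested, 29.5% rose and 27.1% fell in WT and 30.4% rose and 30.1% fell in Il6-/- recipients. The interaction passed for 6 network genes (9.52%), all with negative estimates, beside 4.92% of all genes tested. With the block it passed for 16, of which 1 was positive and 15 negative, beside 11.5% of all genes tested.

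Cochaperones of HSP90, which load and time its clients, mostly had the directions of Hsp90aa1 and Hsp90ab1. On Day 3, 9 of 14 were higher in Il6-/- recipients and none was lower (median 0.30), where 7.52% of all genes tested were higher. The 9 included Ppid, a cyclophilin (0.77, FDR = 2.5e-05), Cacybp (0.60, FDR = 0.00023), Ptges3, the p23 cochaperone (0.46, FDR = 0.0014), and Fkbp4 (0.48, FDR = 0.0063) in the edgeR test. On Day 5 none of 14 passed without the replicate block, where 2 had an unadjusted p under 0.05, beside 2690 of all 13570 genes tested. With the block Cdc37 (0.22, FDR = 0.028) and Fkbp4 (0.25, FDR = 0.023) were higher. With time, 13 fell and 1 rose in each genotype, with medians of -0.77 in WT and -1.11 in Il6-/- recipients. Of all genes tested, 27.1% fell in WT and 30.1% in Il6-/- recipients. The log2 fold changes of Fkbp4 were -1.58 (FDR = 3.0e-08) and -1.80 (FDR = 8.8e-09). Unc45a was the one that rose, by 0.26 (FDR = 0.015) and 0.32 (FDR = 0.0037).

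Of the other mitochondrial chaperones and proteases, 3 of 9 were higher in Il6-/- recipients on Day 3, as Hspd1 and Hspe1 were. Of all genes tested, 7.52% were higher. Hspa9, the mitochondrial HSP70 (mortalin), was higher by 0.70 (FDR = 0.0011), Clpp, a matrix protease, by 0.39 (FDR = 0.0092) and Trap1, the mitochondrial HSP90, by 0.29 (FDR = 0.045). On Day 5 none of the 9 passed in edgeR without the replicate block, where 2 had an unadjusted p under 0.05, beside 2690 of all 13570 genes tested. With the block Trap1 was higher (0.30, FDR = 0.021). With time, 6 fell and 1 rose in WT and 7 fell and 1 rose in Il6-/- recipients. Of all genes tested, 27.1% fell in WT and 30.1% in Il6-/- recipients. The log2 fold changes were -1.39 and -1.89 for Hspa9 and -1.03 and -1.60 for Lonp1, another matrix protease. The interaction passed for Clpp (-0.65, FDR = 0.012).

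TRiC is the ring-shaped chaperonin of the cytosol that folds actin and tubulin, and prefoldin is its partner. Together they had 9 of 14 subunits higher in Il6-/- recipients on Day 3 and none lower (median 0.40). Of all genes tested, 7.52% were higher. The 9 included Cct4 (0.42, FDR = 0.0012), Cct3 (0.41, FDR = 0.0021) and Cct6a (0.54, FDR = 0.0027). None of the 14 passed on Day 5 in edgeR without the replicate block, with 4 at an unadjusted p under 0.05, beside 2690 of all 13570 genes tested. With the block 4 were higher, Tcp1, Cct6a, Cct7 and Cct8 (0.19 to 0.32), beside 5.43% of all genes tested. In time, 11 fell and 1 rose in WT and 13 fell and 1 rose in Il6-/- recipients. Of all genes tested, 27.1% fell in WT and 30.1% in Il6-/- recipients. The exception among the 14 was Pfdn5, a prefoldin subunit that rose by 1.17 (FDR = 3.3e-07) and 1.01 (FDR = 1.1e-06). The log2 fold changes of Cct6a were -1.35 and -1.64.

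The HSP70 system was mixed. On Day 3, 3 of 19 genes (15.8%) were called in edgeR, all higher in Il6-/- recipients. Of all genes tested, 13.7% were called and 7.52% were higher. The 3 were Hspbp1 (0.41, FDR = 0.0044), Hspa4, an HSP110 relative (0.43, FDR = 0.0065), and St13 (0.33, FDR = 0.013). On Day 5, beside 3.35% of all genes tested, 2 of the 19 were lower, the exchange factor Bag1 (-1.24, FDR = 0.026) and the J-domain gene Dnaja4 (-1.41, FDR = 0.026). Neither was called when WT replicate 1 or 2 or Il6-/- replicate 2 or 3 of Day 5 was left out, nor without both replicates 2 of Day 5, where 0 of the 63 network genes were called. With the replicate block Hspa4 was lower as well (-0.28, FDR = 0.015). Hspa4 also passed the interaction (-0.72, FDR = 0.0093). With time 8 of 19 fell and 4 rose in WT, where 27.1% of all genes tested fell and 29.5% rose, and 12 fell and 3 rose in Il6-/- recipients, where 30.1% fell and 30.4% rose. Bag3, an exchange factor induced with Hspa1a under stress, was among those that rose, by 1.37 (FDR = 0.00011) in WT and 1.38 (FDR = 7.8e-05) in Il6-/- recipients, from 3.66 ± 1.06 to 9.51 ± 1.18 CPM and from 4.23 ± 0.798 to 11 ± 0.919 CPM.

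Of the heat shock factors and other heat shock genes, 7 of 11 were tested. Hsf1 itself was higher in Il6-/- recipients on Day 3 by 0.29 (FDR = 0.038), while Hmox1, heme oxygenase (-1.06, FDR = 0.027), and Hspb11 (-0.45, FDR = 0.043) were lower. None passed on Day 5 between recipients in the edgeR test without the replicate block, with 2 at an unadjusted p under 0.05, beside 2690 of all 13570 genes tested. From Day 3 to Day 5, Hsbp1, a binding partner of Hsf1, rose by 0.63 (FDR = 1.0e-05) in WT and 0.56 (FDR = 2.7e-05) in Il6-/- recipients, and Ubb, a ubiquitin gene, by 0.50 (FDR = 6.6e-05) and 0.53 (FDR = 3.2e-05).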

How the data were processed

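RNA from 12 sorted OTII samples was sequenced by the authors as single-end reads of 50 bp. Per the paper's methods, reads were trimmed (Trim Galore 0.4.4), aligned to GRCm39 (STAR 2.5.2a) and counted per gene without regard to strand (HTSeq 0.6.1p1), and the deposited values are these raw counts for 40840 gene symbols, with no scaling. Reads that were not unique (23.7% to 28.2%) or ambiguous (1.96% to 2.28%) were not assigned to genes. The deposited table of log2 CPM over all samples was not used.

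The analysis used edgeR 4.0.16, with limma 3.58.1, under R 4.3.3. Genes were kept by filterByExpr (13570 genes), libraries were scaled by TMM (factors 0.944 to 1.06), and 1 quasi-likelihood model with a coefficient per group (8 residual and 7 prior degrees of freedom, median biological coefficient of variation 0.132) gave 5 comparisons, each adjusted over all genes tested by the Benjamini-Hochberg method and called at an FDR under 0.05. The study also required a 2-fold change, and that rule was an alternative here. log2 CPM used a prior count of 2. With 3 libraries per group, an exact permutation test of a single gene cannot go below p = 0.1. Replicates of each group differed by more than sampling noise.

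The 10 members and the lists of related genes were chosen with earlier results of these data known. All 10 members are named, and of each related list up to 4 genes with the smallest p in each comparison, while Bag3, Unc45a and Pfdn5 were chosen after their values were seen. Samples carrying the same replicate number deviated together from their group means on Day 5 (r = 0.24, 0.21 and 0.13 over all genes for replicates 1, 2 and 3) and not on Day 3 (r = 0.03 to 0.06). The replicate block nonetheless paired the genotypes by replicate number within both days. In the day comparisons it joined all libraries of the same number, although r between Day 3 and Day 5 was -0.07 to 0.07. Only the pairing of the genotypes on Day 5 therefore had a basis in the deviations.

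Alternatives for the tests were RLE scaling, no low-count filter, CPM over 1 in at least 3 libraries, DESeq2 1.42.0 and the replicate block. Others were the 6 libraries of a comparison alone, Hspa1a and Hspa1b summed, both Day 5 replicates 2 left out, and each library left out. No scaling beyond the library total and a prior count of 0.5 were applied only to the description of Day 5 replicate 2 and to no test. Scripts were tested on simulated data. Positions, sequences and overlaps came from GENCODE vM39 on GRCm39, which may differ from the authors' annotation. No protein sequence was used.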

Additional observations from a re-analysis of the deposited data

Results flagged for a closer look

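The difference between Il6-/- and WT recipients changed between the days for Hspe1, the lid of the mitochondrial chaperonin. The log2 difference on Day 5 minus that on Day 3 was -0.78 (SE 0.15, interval -1.09 to -0.47), and the test of this change itself passed in edgeR's quasi-likelihood fit (FDR = 0.0097). It was the 1 member of 10 to pass, beside 4.92% of all genes tested. On Day 3 all 3 Il6-/- libraries (300 to 339 CPM) lay above all 3 WT libraries (160 to 195 CPM), and on Day 5 the groups overlapped (112 to 131 and 104 to 132 CPM).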

How the results depend on the processing

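With 3 libraries a group, calls near the threshold moved easily, above all on Day 5. Called members were 5 on Day 3 between recipients, 3 on Day 5, 1 in the interaction, 7 over time in WT and 10 in Il6-/- recipients, and those of the network 27, 2, 6, 47 and 57. With the added 2-fold rule of the study these were 0 members on Day 3, 1 on Day 5 and 3 and 6 over time. For the network they were 1 on Day 3, 2 on Day 5 and 15 and 23 over time. Of all 13570 genes tested, 372 met this rule on Day 3, 155 on Day 5 and 2996 and 3509 over time. Without a low-count filter 8 members were called on Day 5, 5 in the interaction and 4 network genes on Day 5. That fit took in 25836 genes with a median mean count of 9.04, against 416 over the genes tested otherwise, and its prior degrees of freedom were infinite, so it did not use each gene's own spread. DESeq2 called 6 members and 5 network genes on Day 5, for which no share of all genes tested is given here. Without both replicates 2 of Day 5, 1 member and 0 network genes were called on Day 5, and 2 of each in the interaction.

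With the replicate block, 8 members and 11 network genes were called on Day 5 and 4 and 16 in the interaction, beside 11.7% and 11.5% of all genes tested. On Day 3, where libraries of the same number did not deviate together, the block raised the called members from 5 to 7. The share of all genes tested that was called on Day 3 went from 13.7% to 19.6%. It turned the sign of Hspa1a (0.32) and Hspa1b (0.78) on Day 3 and of Hspa1a over time in WT recipients (0.25), none of which passed. The last was also positive without both replicates 2 of Day 5 (0.21) and with the HSP70 pair summed (0.21).

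Leaving out 1 library at a time gave 3 to 7 called members on Day 3, 0 to 5 on Day 5, 1 to 3 in the interaction, 7 to 9 over time in WT and 10 in Il6-/- recipients, and 15 to 27, 0 to 6, 4 to 8, 42 to 47 and 50 to 57 network genes. Estimates that changed sign were those of Hspa1a (-1.14 to 2.47) and Hspa1b (-0.76 to 2.34) on Day 3 and over time in WT recipients (-0.72 to 2.90 and -0.24 to 2.90), of Hspe1 on Day 5 (0.00 to 0.17), and the interactions of Hsph1 (-0.12 to 0.25), Hspa8 (-0.22 to 0.05) and Hsp90aa1 (-0.24 to 0.08). The high values of Hspa1a and Hspa1b on Day 3 and over time in WT recipients came without WT replicate 1 of Day 3. Under all other settings, the single-gene results were counted together with the medians over the members for replicate 2 of Day 5. Of these, 317 kept direction and side of the threshold or, for the medians, moved by less than the spread within the group. A further 31 newly passed, 5 no longer passed and 5 changed sign. Except where stated, the cause of these changes was not tested.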
